A study of Mus musculus with 12 samples.

Results

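The 9 genes described here encode the catalytic subunit of the cortical thymoproteasome (Psmb11, also called beta5t), the proteases Prss16, Ctsl, Ctss, Ctsb and Ctsd, the endocytic receptor Ly75, the thymic stromal protein Tbata and the surface protein Cd83. They were chosen by name from the 31332 genes counted in RNA of thymic epithelial cells, sorted from C57BL6/J mice 2 months of age. All animals carried floxed alleles of the liver X receptors LXRalpha and LXRbeta (genes Nr1h3 and Nr1h2). The Cre groups carried in addition a FoxN1-Cre transgene, which is active in thymic epithelium of both cortex and medulla, and the control groups did not. There were 3 libraries each of Cre cTEC (cortical cells, libraries 10 to 12), control cTEC (7 to 9), Cre mTEC (medullary cells, 4 to 6) and control mTEC (1 to 3). Since no group carried Cre without floxed alleles, the presence of Cre and the loss of the receptors cannot be told apart. The sources used here do not name the surface markers of the sort.

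Cortical epithelial cells display self peptides on MHC molecules, and thymocytes whose receptors bind these weakly are kept, a step called positive selection. The peptides come from proteases that other cells use little. The thymoproteasome is a proteasome in which Psmb11 takes the catalytic place that Psmb5 holds in the constitutive and Psmb8 in the immunoproteasome, and it makes MHC class I peptides for CD8 T cells. In the class II pathway, cathepsin L in mouse cTEC and cathepsin S in dendritic and other cells degrade the invariant chain that blocks the groove, and Prss16 is needed for part of the CD4 repertoire.

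Counts per library ran from 4804697 to 11159013, so that 1 count was worth between 0.0896 and 0.193 CPM (the reads of a gene relative to all counted reads of its library, scaled by TMM factors). Nr1h2 stood at 102 to 123 CPM in Cre cTEC and 157 to 191 CPM in control cTEC. In mTEC it stood at 70.2 to 95.7 CPM with Cre and 109 to 131 CPM in controls, and Nr1h3 at 5.83 to 10.7 CPM throughout. Reads from undeleted exons still count, so these levels do not measure deletion. Cre cTEC library 11 stood apart from library 10 (r of log CPM across genes 0.9665, lower than for any other 2 libraries of a group), and it had the fewest counts. A list of 12 mTEC genes summed to 1332 to 1554 CPM in Cre cTEC and 2342 to 2655 CPM in control cTEC, against 6316 to 7239 CPM in Cre mTEC and 7377 to 7671 CPM in control mTEC. In that list Krt5 (832 CPM in Cre cTEC and 1438 CPM in control cTEC) and Krt14 (435 and 965 CPM), keratins of basal epithelium, were lower in Cre cTEC. Fezf2 (40.0 CPM in Cre cTEC and 23.8 CPM in control cTEC), Cd40 (29.2 and 14.6 CPM) and Tnfrsf11a (35.7 and 20.2 CPM) were higher, and the other 6 of 11 tested genes did not pass. Of all genes tested, 9.01% passed with genotype in cTEC. The mTEC gene Ccl21a was at 0 in all libraries of 3 groups and averaged 0.150 CPM in Cre mTEC, and no level is read from these counts. Aire, another gene of the list, averaged 638 CPM in Cre mTEC and 862 CPM in control mTEC. The part of these mTEC transcripts in the cTEC results below was not tested. In bulk RNA, fewer cells of a type and less RNA per cell cannot be told apart. The labels do not say whether libraries came from separate animals, so the p-values measure only the spread between libraries.

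The stretches before the start site are shown for Tbata and Ly75, whose genotype effect differed between cTEC and mTEC, for Psmb11, and for Ctsd, which was lower in Cre cTEC. RefSeq (GRCm38.p6) promoters were found for 6 of the 9 genes, the others being Prss16, Ctsb and Cd83. The last base printed is the one before the start site, and capitals mark GACGC or its reverse complement GCGTC, the core sequence that FOXN1, the master transcription factor of thymic epithelium, recognises.
Psmb11, chr14:54625060-54625309, plus strand: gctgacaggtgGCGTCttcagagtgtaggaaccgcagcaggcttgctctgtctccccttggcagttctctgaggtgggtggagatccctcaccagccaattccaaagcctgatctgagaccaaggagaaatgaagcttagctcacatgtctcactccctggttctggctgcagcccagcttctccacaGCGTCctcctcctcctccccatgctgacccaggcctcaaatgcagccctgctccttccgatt
Tbata, chr10:61171714-61171963, plus strand: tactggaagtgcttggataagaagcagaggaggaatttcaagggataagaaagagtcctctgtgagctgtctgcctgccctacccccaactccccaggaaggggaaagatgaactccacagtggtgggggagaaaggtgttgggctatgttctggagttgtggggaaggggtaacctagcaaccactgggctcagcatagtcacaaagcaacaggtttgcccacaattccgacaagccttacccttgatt
Ly75, chr2:60383274-60383523, minus strand: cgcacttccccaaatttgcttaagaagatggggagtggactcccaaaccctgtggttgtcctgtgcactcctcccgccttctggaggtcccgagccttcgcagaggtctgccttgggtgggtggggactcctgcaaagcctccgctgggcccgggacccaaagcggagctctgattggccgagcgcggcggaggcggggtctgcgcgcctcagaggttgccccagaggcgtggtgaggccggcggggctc
Ctsd, chr7:142387828-142388077, minus strand: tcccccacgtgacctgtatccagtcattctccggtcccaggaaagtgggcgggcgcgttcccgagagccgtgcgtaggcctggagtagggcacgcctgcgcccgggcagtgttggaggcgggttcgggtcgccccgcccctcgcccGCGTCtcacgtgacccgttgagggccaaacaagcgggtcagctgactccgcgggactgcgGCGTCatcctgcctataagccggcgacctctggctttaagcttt
The core occurred in 2 of these 6 windows, Psmb11 and Ctsd, with 2 matches in each, and in 22.6% of 32851 promoter windows of 250 bases. The Psmb11 matches began 239 and 62 bases before the start site and those of Ctsd 104 and 44 bases before it. The CCAAT box (CCAAT or ATTGG) was found in the windows of Psmb11 and Ly75 and in 33.8% of all windows. The LXR response element, a direct repeat of AGGTCA with the spacing NNNN, was searched on both strands. It was in none of the 6 windows and in 0.0152% of all (5 of 32851). The repeated unit alone (AGGTCA or its reverse complement TGACCT) was in 2 of the 6 windows, Ctss and Ctsd, and in 14% of all. These matches began 136 bases before the start site in Ctss and 241 bases before it in Ctsd. A match is a string of letters, not a site shown to be bound, and its absence covers only the window searched.

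Psmb11 was a cTEC transcript with low levels in mTEC, and it was higher in Cre cTEC. It had 993, 369.7 and 721 CPM in Cre cTEC (libraries 10, 11 and 12) and 253, 434 and 370.4 CPM in control cTEC (7, 8 and 9). In mTEC libraries, 132, 237 and 94 reads were counted with Cre (12.7 to 35.5 CPM) and 211, 162 and 121 in controls (15.8 to 18.9 CPM). Libraries 10 and 12 exceeded every control cTEC library, while library 11 lay inside their range. In cTEC the means were 695 ± 313 CPM with Cre and 352 ± 91.8 CPM in controls (SD, n = 3 each). The log2 fold change was 0.98 (SE 0.29, adjusted p = 0.0363, edgeR's quasi-likelihood test with Benjamini-Hochberg adjustment over all 17268 genes tested). All adjusted p-values in this text are from that test unless another tool is named, with a threshold of 0.05. Psmb11 no longer passed without library 7, 9, 10 or 12 (log2 fold changes 0.63 to 1.27 over all libraries left out) with DESeq2 (adjusted p = 0.104) and with the robust fit (adjusted p = 0.217). In mTEC the log2 fold change was 0.37 (SE 0.35, adjusted p = 0.701), and without library 5, the highest, it was -0.11. The 2 genotype effects differed by 0.61 (SE 0.45, adjusted p = 0.563), and by 0.71 without a filter (adjusted p = 0.0453). cTEC exceeded mTEC by 4.94 on the log2 scale in Cre (SE 0.35, adjusted p = 6.46e-10) and by 4.33 in controls (SE 0.34, adjusted p = 2.21e-09).

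Psmb11 also made up more of the beta5 transcripts in Cre cTEC. Of the summed CPM per kb of Psmb11, Psmb8 and Psmb5, it took 58.5, 40.9 and 49.2% in Cre cTEC and 30.5, 39.3 and 33.6% in control cTEC. No Cre library overlapped the controls, with library 11 just above library 8. The mean shares were 49.5 ± 8.84% and 34.5 ± 4.48% (SD, n = 3 each), and the exact two-sided permutation p of 0.1 is the smallest that 3 against 3 libraries allow. In mTEC the shares were 2.61, 5.12 and 1.78% with Cre and 2.65, 2.20 and 2.09% in controls, with overlap (exact permutation p = 0.7). The other 2 genes of that sum did not pass in cTEC. Psmb5 averaged 37.0 ± 7.49 CPM with Cre and 35.5 ± 6.10 CPM in controls (log2 fold change 0.07, SE 0.15, adjusted p = 0.894). Psmb8 averaged 186 ± 29.0 CPM with Cre and 188 ± 26.2 CPM in controls (log2 fold change -0.01, SE 0.13, adjusted p = 0.979). Exons of Psmb8 overlap 498 bases of the antisense gene Gm20496, whose part in the Psmb8 counts was not tested. Psmb10, the immunoproteasome beta2 subunit, which thymoproteasomes also carry, had 373, 231 and 339.9 CPM in Cre cTEC and 185, 243 and 233 CPM in control cTEC (log2 fold change 0.51, SE 0.15, adjusted p = 0.0302). As with Psmb11, library 11 lay inside the control range, and the Psmb10 call was lost when library 7, 9, 10 or 12 was left out (highest adjusted p = 0.151) and with only the cTEC libraries in the fit (adjusted p = 0.0595). Psmb9, the immunoproteasome beta1 subunit, had 1 count in library 8 and 0 elsewhere. Its exons overlap 212 bases of Tap1 on the other strand, and no level is read from these counts.

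**Figure D1:**
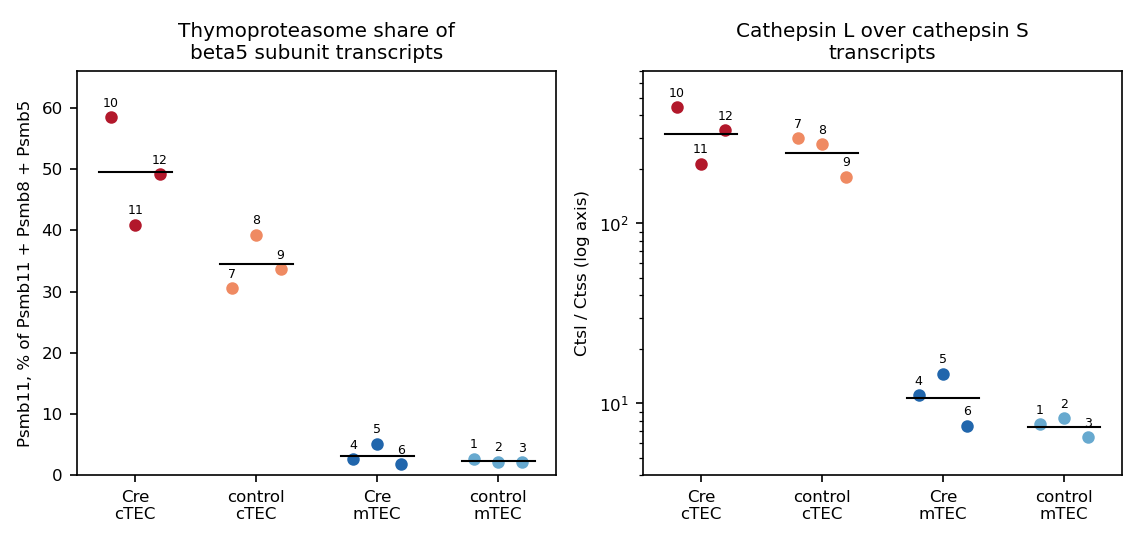
Left, the share of Psmb11 in the summed CPM per kb of Psmb11, Psmb8 and Psmb5 in each library (points, with library numbers), in percent, with the group mean as a line. Right, the ratio of Ctsl to Ctss per kb on a log axis with the geometric mean as a line: cTEC libraries lie at 182 or above and mTEC libraries at 14.6 or below.

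Prss16, the thymus-specific serine protease, followed the pattern of Psmb11 at a higher level. It had 5471, 1984 and 3671 CPM in Cre cTEC and 1766, 2262 and 1751 CPM in control cTEC. Library 11 again lay within the control range, with libraries 10 and 12 above it. The log2 fold change was 0.94 (SE 0.25, adjusted p = 0.0191), with means of 3709 ± 1744 CPM and 1926 ± 291 CPM (SD, n = 3 each), and the call was lost when library 7, 9 or 10 was left out (highest adjusted p = 0.138) and with the robust fit (adjusted p = 0.0875). In mTEC, levels were 168, 139 and 102 CPM with Cre and 108, 113 and 108 CPM in controls (log2 fold change 0.32, SE 0.25, adjusted p = 0.642). The difference of the 2 effects was 0.63 (SE 0.35, adjusted p = 0.403), and 0.96 without library 11 (adjusted p = 0.0197) and 0.73 without a filter (adjusted p = 0.0351). The level in cTEC over that in mTEC was 4.76 on the log2 scale in Cre (SE 0.29, adjusted p = 8.01e-11) and 4.13 in controls (SE 0.28, adjusted p = 2.55e-10).

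**Figure D2:**
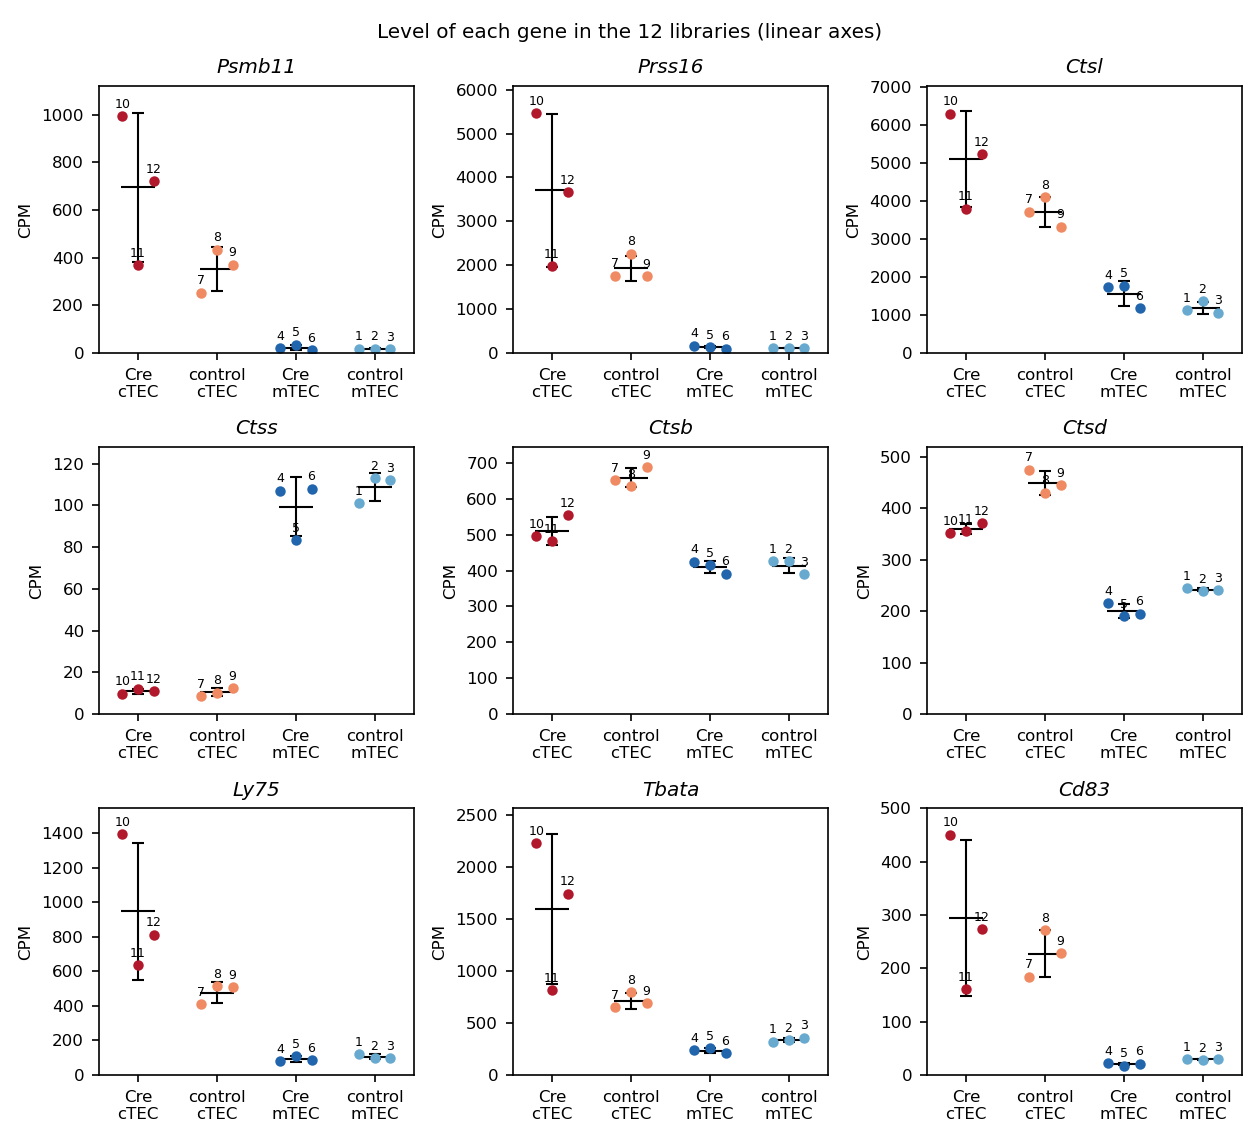
CPM of each gene in the 12 libraries (points, labelled with library numbers), on linear axes that start at 0; bars mark the mean and SD of the 3 libraries of a group. In Cre cTEC, libraries 10, 12 and 11 rank in that order from high to low for Psmb11, Prss16, Ctsl, Ly75, Tbata and Cd83, and Ctss is the one gene with its higher levels in mTEC.

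Of the cathepsins chosen here, Ctsl, Ctsb and Ctsd were higher in cTEC, Ctsl by the most, and Ctss was higher in mTEC. Ctsl, the lysosomal cysteine protease that processes the invariant chain in cTEC, had 6292, 3795 and 5230.4 CPM in Cre cTEC and 3714, 4100.4 and 3319 CPM in control cTEC. The mTEC levels were 1732, 1773 and 1188 CPM with Cre and 1129, 1361 and 1063 CPM in controls. Both genotype comparisons overlapped between groups. The log2 fold changes were 0.46 in cTEC (SE 0.18, adjusted p = 0.151) and 0.40 in mTEC (SE 0.18, adjusted p = 0.315), so Ctsl did not pass in either. It passed in cTEC with DESeq2 (adjusted p = 0.0387), with voom (adjusted p = 0.0172), without a filter (adjusted p = 0.0308) and without library 11 (0.62, adjusted p = 0.0167). The cTEC level exceeded that of mTEC by 1.71 in Cre (SE 0.19, adjusted p = 3.6e-07) and 1.65 in controls (SE 0.19, adjusted p = 4.22e-07) on the log2 scale. In the annotation its exons overlap an antisense gene over 1742 bases and a pseudogene on the same strand over 395 bases. The library kit does not mark strand.

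Ctss, cathepsin S, had 9.82, 12.2 and 10.9 CPM in Cre cTEC and 8.61, 10.2 and 12.5 CPM in control cTEC. In the medullary cells it had 107, 83.2 and 108 CPM with Cre and 101, 113 and 112 CPM in controls. Every mTEC library exceeded every cTEC library, and within each cell type the genotypes overlapped. The log2 fold change of cTEC over mTEC was -3.20 in Cre (SE 0.15, adjusted p = 2.33e-12) and -3.37 in controls (SE 0.15, adjusted p = 7.04e-13). Genotype effects were 0.04 in cTEC (SE 0.17, adjusted p = 0.944) and -0.13 in mTEC (SE 0.12, adjusted p = 0.705). Macrophages and dendritic cells also express Ctss. The sum of a list of 21 of their markers was 74.4 to 99.6 CPM in Cre cTEC and 81.3 to 107 CPM in control cTEC. It was 324 to 459.6 CPM in Cre mTEC and 397 to 487 CPM in control mTEC. Of 19 tested, 10 were lower in cTEC than in mTEC in Cre and 11 in controls. Of all genes, 25.1% and 29.3% were. Mertk was higher in cTEC in both genotypes, and 8 markers in Cre and 7 in controls did not pass. None of the 21 was at 0 in all libraries of a group. The most abundant of them, Lyz2 (lysozyme), averaged 20.9 and 27.0 CPM in Cre and control cTEC and 213 and 248 CPM in Cre and control mTEC. Zbtb46 averaged 20.2 and 13.2 CPM in Cre and control cTEC and 62.6 and 75.3 CPM in Cre and control mTEC. Others were low in all groups. Itgax averaged 0.950 and 1.30 CPM in Cre and control cTEC and 1.14 and 0.790 CPM in Cre and control mTEC. Siglech averaged 1.97 and 1.60 CPM in Cre and control cTEC and 1.86 and 1.30 CPM in Cre and control mTEC. The part of these cells in the Ctss difference was not tested.

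Within a library, Ctsl exceeded Ctss per kb by 441, 215 and 329 times in Cre cTEC and 297, 276 and 182 times in control cTEC. In mTEC the ratio was 11.1, 14.6 and 7.53 with Cre and 7.65, 8.25 and 6.51 in controls. The cell types were thus far apart and the genotypes overlapped in both. The log2 ratio differed between cTEC and mTEC by 4.88 in Cre and 5.05 in controls (exact permutation p = 0.1 for each, the smallest possible). Between genotypes it differed by 0.35 in cTEC (exact permutation p = 0.4) and 0.53 in mTEC (exact permutation p = 0.3).

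Ctsb and Ctsd, the lysosomal cysteine and aspartic proteases of most cell types, were lower in Cre cTEC. Ctsb had 496, 483 and 555 CPM in Cre cTEC and 653, 636 and 688 CPM in control cTEC, with no overlap. Its log2 fold change was -0.37 (SE 0.11, adjusted p = 0.0339), a call lost when library 7, 8, 9 or 10 was left out (highest adjusted p = 0.156), without a filter (adjusted p = 0.303) and with only the cTEC libraries in the fit (adjusted p = 0.0641). In mTEC it had 425, 416 and 392 CPM with Cre and 426, 426 and 391 CPM in controls (log2 fold change -0.01, SE 0.11, adjusted p = 0.983). Exons of Ctsb overlap 774 bases of Fdft1, the squalene synthase gene, on the other strand, and reads there cannot be told apart by strand. Fdft1 had a log2 fold change of -2.07 in cTEC (SE 0.22, adjusted p = 1.04e-05) and -0.66 in mTEC (SE 0.22, adjusted p = 0.128), and its part in the Ctsb counts was not tested. The level of Ctsb in cTEC exceeded that in mTEC by 0.67 in controls (SE 0.11, adjusted p = 2.26e-05). In Cre that difference was 0.31 (SE 0.11, adjusted p = 0.0183), which was lost when library 6 or 12 was left out (highest adjusted p = 0.102), without a filter (adjusted p = 0.329) and with only the Cre libraries in the fit (adjusted p = 0.0699).

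Ctsd had 352, 355 and 371 CPM in Cre cTEC and 475, 429.8 and 444 CPM in control cTEC. In mTEC, levels were 215, 189.6 and 195 CPM with Cre and 245, 239 and 241 CPM in controls. All Cre libraries lay below all control libraries in both cell types. In cTEC the log2 fold change was -0.32 (SE 0.10, adjusted p = 0.0487), just inside the threshold and lost when library 7, 8, 9, 10 or 12 was left out (highest adjusted p = 0.178), without a filter (adjusted p = 0.449), with the robust fit (adjusted p = 0.0507) and with only the cTEC libraries in the fit (adjusted p = 0.0976). In mTEC it was -0.27 (SE 0.10, adjusted p = 0.182), which passed with DESeq2 (adjusted p = 0.00748) and voom (adjusted p = 0.0206). The 2 effects differed by -0.05 (SE 0.14, adjusted p = 0.912). cTEC exceeded mTEC by 0.85 on the log2 scale in Cre (SE 0.10, adjusted p = 9.08e-07) and 0.90 in controls (SE 0.10, adjusted p = 2.97e-07). The annotation places another coding gene, Gm49369, on 808 bases of Ctsd exons, and it had no row in the table.

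Ly75 and Tbata were higher in Cre cTEC with no overlap between libraries, and their genotype effect in cTEC exceeded that in mTEC. Ly75 encodes DEC-205, an endocytic receptor of cTEC and dendritic cells that delivers captured material to processing compartments. It had 1391, 636 and 812 CPM in Cre cTEC and 408, 514 and 508 CPM in control cTEC. All Cre libraries exceeded the highest control. The log2 fold change was 0.99 (SE 0.20, adjusted p = 0.00356), and 0.60 without library 10 (adjusted p = 0.0152). The mTEC levels were 80.3, 109 and 87.3 CPM with Cre and 122, 98.1 and 98.3 CPM in controls (log2 fold change -0.20, SE 0.21, adjusted p = 0.742). The effects differed by 1.19 (SE 0.29, adjusted p = 0.0259), a call lost when library 1, 4, 7 or 9 was left out (highest adjusted p = 0.0896) and with the robust fit (adjusted p = 0.0721). cTEC exceeded mTEC by 3.36 on the log2 scale in Cre (SE 0.23, adjusted p = 3.26e-10) and 2.17 in controls (SE 0.21, adjusted p = 5.71e-08). Exons of Ly75 overlap 249 bases of the antisense gene Gm13571, whose part in the Ly75 counts was not tested.

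Tbata encodes a thymic stromal protein that restrains proliferation of thymic epithelial cells in mice. It had 2230.1, 817 and 1744 CPM in Cre cTEC and 653, 797 and 689 CPM in control cTEC. Library 11 was just above library 8, and libraries 10 and 12 were far above all controls. The means were 1597 ± 718 CPM and 713 ± 75.3 CPM (SD, n = 3 each). The log2 fold change of 1.16 (SE 0.23, adjusted p = 0.00222) was the largest of the 9 genes in cTEC. In the medullary cells it had 239.8, 257 and 207 CPM with Cre and 319, 334 and 360.1 CPM in controls. Here the Cre libraries were all below the controls, with a value of -0.52 on the log2 scale (SE 0.23, adjusted p = 0.278) that passed with voom (adjusted p = 0.0195), without a filter (adjusted p = 0.013) and with only the mTEC libraries in the fit (adjusted p = 0.00881). The effects differed by 1.69 (SE 0.32, adjusted p = 0.00579), which held in all 18 alternatives (adjusted p up to 0.0323). The level in cTEC over that in mTEC was 2.77 on the log2 scale in Cre (SE 0.24, adjusted p = 1.26e-08) and 1.08 in controls (SE 0.23, adjusted p = 0.00048).

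Cd83 encodes a surface protein that slows the ubiquitination and loss of MHC class II in thymic epithelial cells. It had 450.4, 161 and 273 CPM in Cre cTEC and 184, 271 and 228 CPM in control cTEC. Library 11 was the lowest of all cTEC libraries and library 10 the highest. Its log2 fold change was 0.38 (SE 0.23, adjusted p = 0.411). It was -0.06 without library 10 (adjusted p = 0.913) and passed without library 11 (0.66, adjusted p = 0.0122) and without a filter (0.45, adjusted p = 0.033). In mTEC it had 22.1, 17.8 and 21.1 CPM with Cre and 30.3, 28.3 and 29.7 CPM in controls, without overlap (log2 fold change -0.53, SE 0.27, adjusted p = 0.388). It passed there with no filter (adjusted p = 0.0215) and with only the mTEC libraries in the fit (adjusted p = 0.0228). The effects differed by 0.91 (SE 0.35, adjusted p = 0.185), which passed with voom (0.86, adjusted p = 0.0401), without a filter (1.01, adjusted p = 0.000267) and without library 11 (1.22, adjusted p = 0.00516). cTEC exceeded mTEC by 3.86 in Cre (SE 0.27, adjusted p = 5.89e-10) and 2.95 in controls (SE 0.25, adjusted p = 7.99e-09) on the log2 scale. March8, the ubiquitin ligase gene whose action on MHC class II Cd83 opposes, averaged 231 ± 44.1 CPM in Cre cTEC and 189 ± 7.76 CPM in control cTEC (log2 fold change 0.29, SE 0.14, adjusted p = 0.241).

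**Figure D3:**
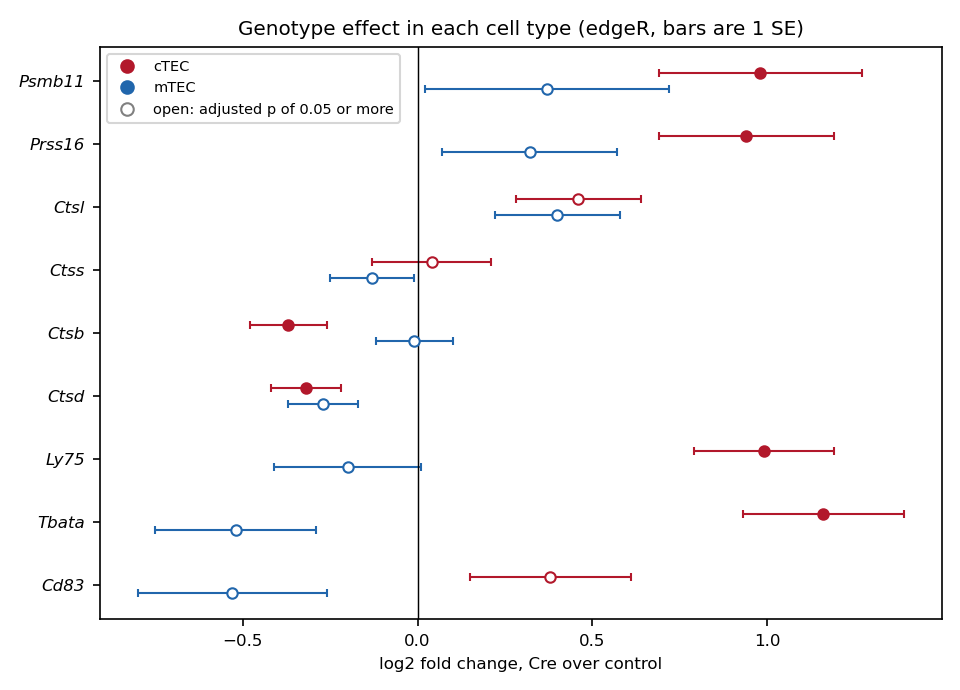
Log2 fold change of Cre over control for each gene in cTEC (red) and mTEC (blue), with bars of 1 SE; filled points passed the adjusted p threshold of 0.05. Psmb11, Prss16, Ly75 and Tbata lie between 0.94 and 1.16 in cTEC, Ctsb and Ctsd lie below 0, and no point passed in mTEC.

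All 9 genes passed the filter on low counts. In cTEC, 4 were higher with Cre, 2 were lower and 3 did not pass, against 9.01% of all genes tested that passed, 5.62% higher and 3.38% lower. The median log2 fold change of the 9 was 0.46, against -0.02 over all genes. The groups did not overlap for 4 of them (Ctsb, Ctsd, Ly75 and Tbata) and for 20.2% of all genes. In mTEC 0 of 9 passed with edgeR, where 2.07% of all genes did, 0.585% higher and 1.49% lower. There, 3 of the 9 had an unadjusted p under 0.05, DESeq2 called 1 (Ctsd) and voom called 3 (Ctsl, Ctsd and Tbata). Groups did not overlap in mTEC for 3 (Ctsd, Tbata and Cd83) and for 24.4% of all genes. The median in mTEC was -0.13, and 0.01 over all genes. The difference of effects passed for 2, both with the larger effect in cTEC, and for 4.01% of all genes, 2.92% in that direction.

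Leaving out libraries 10 and 11 changed these counts in opposite ways. Without library 10, 2 genes were higher (Ly75 and Tbata) and 0 lower in cTEC. The median was then 0.28. Without library 11, 6 were higher (Psmb11, Prss16, Ctsl, Ly75, Tbata and Cd83) and 2 lower, with a median of 0.66. Without library 7 or 9, 2 were higher and 0 lower. Without library 8, 0 were lower, and without library 12, 1. Calls over all genes in cTEC moved too, from 1555 to 1019 without library 10, 1022 without library 7 and 1018 without library 9. The highest number with 1 library left out was 2294. The coefficient of variation in Cre cTEC was 41.7 to 49.5% for Psmb11, Prss16, Ly75, Tbata and Cd83 and 24.5% for Ctsl, against 7.45% for Ctsb and 2.85% for Ctsd. Total counts of libraries 10, 12 and 11 fell in the same order as these 6 genes (10243160, 7256433 and 4804697). Their TMM factors rose (0.8751, 0.9456 and 1.079). The part of depth in this order was not tested. The difference of effects passed for 1 gene of the 9 without library 1, 4, 7 or 9 and for 4 without library 11. Over all genes it passed for 692 with every library and for 1644 without library 11. Without library 1, 7 or 9 it passed for 371, 459 and 411. Foxn1, which activates many cTEC genes, had 73.1, 164 and 94.4 CPM in libraries 10, 11 and 12, against 270.1, 353 and 328 CPM in control cTEC (log2 fold change -1.53, SE 0.36, adjusted p = 0.00851, and 0.131 with the robust fit). Its order over the Cre cTEC libraries was the reverse of that of the 6 genes, which with 3 libraries is a description only. In mTEC Foxn1 had 155, 33.9 and 57.5 CPM with Cre and 291, 231 and 239 CPM in controls.

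Between cell types, all 9 genes passed in both genotypes and no groups overlapped. With Cre 8 were higher in cTEC and 1, Ctss, was lower, where 49.6% of all genes passed (24.5% higher and 25.1% lower) and 53.0% did not overlap. The control libraries gave the same split, where 59.2% of all genes passed (30.0% higher and 29.3% lower) and 69.3% did not overlap. The median log2 difference was 2.77 in Cre and 1.65 in controls, against 0.02 and 0.05 over all genes. Their known place in one or the other cell type is how these genes came to be chosen, so these differences describe the sort.

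**Figure D4:**
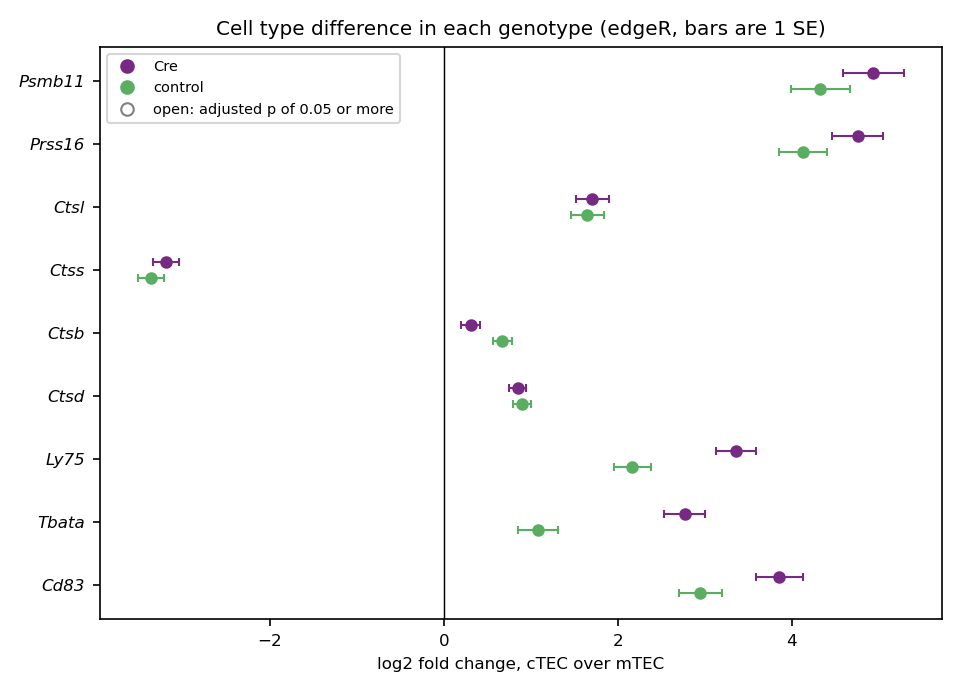
Log2 fold change of cTEC over mTEC for each gene in Cre (purple) and control (green) libraries, with bars of 1 SE; all points passed. The values span 0.31 for Ctsb to 4.94 for Psmb11 in Cre, with Ctss alone below 0 at -3.20 in Cre and -3.37 in controls.

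Compared per kb of transcript, the order of mean levels in Cre cTEC was Ctsl (2591), Prss16 (1721), Tbata (1060.4), Ly75 (183), Ctsd (169), Psmb11 (164), Cd83 (119), Ctsb (108) and Ctss (8.09 CPM per kb). In control cTEC it was Ctsl (1883), Prss16 (894), Tbata (473), Ctsd (211), Ctsb (139), Ly75 (92.1), Cd83 (91.9), Psmb11 (82.9) and Ctss (7.71 CPM per kb). Neighbours in these orders that differed by less than the larger of their SDs were Prss16 and Tbata, and Ly75 through Ctsb, in Cre cTEC, and Ly75, Cd83 and Psmb11 in control cTEC. In Cre mTEC the order ran Ctsl (794), Tbata (156), Ctsd (94.0), Ctsb (86.7), Ctss (73.5), Prss16 (63.3), Ly75 (17.8), Cd83 (8.22) and Psmb11 (5.36 CPM per kb). In control mTEC it ran Ctsl (601), Tbata (224), Ctsd (114), Ctsb (87.4), Ctss (80.5), Prss16 (50.9), Ly75 (20.5), Cd83 (11.9) and Psmb11 (4.11 CPM per kb). There, only Ctss and Prss16 in Cre mTEC were within that spread. Ctsl led in all 4 groups, and Psmb11, the lowest in mTEC, was near Cd83 in cTEC. These orders rest on the transcript length taken for each gene, 4247 bases for Psmb11 and 2477 for Cd83.

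Other proteasome genes were read in 4 lists, beside the 9.01% of all genes that passed with genotype in cTEC. Of 14 genes of the 20S core, 0 passed (median log2 fold change 0.08, range -0.07 to 0.35, against a median of -0.02 over all genes). Of these, 1 had an unadjusted p under 0.05, DESeq2 called 0 and voom 1, and without library 11, 3 were higher (Psma5, Psma7 and Psmb4). The 9.01% is 1555 genes, with every library in the fit. With 1 library left out, 1018 to 2294 genes of all passed. Of 18 genes of the 19S regulatory particle, 0 passed, with 0 at an unadjusted p under 0.05 and 0 by DESeq2 or voom (median 0.05). Of 4 tested immunoproteasome and PA28 genes, 1 was higher (Psmb10). Among 8 other activators and assembly chaperones, 1 was higher: Psme4, which encodes the activator PA200. It had 61.9, 66.4 and 47.7 CPM in Cre cTEC and 36.5, 36.7 and 37.3 CPM in control cTEC. Its log2 fold change was 0.67 (SE 0.13, adjusted p = 0.00167), and library 11 was here the highest. Between cell types, Psme1 and Psme2, the PA28 activator genes, were lower in cTEC, by log2 fold changes of -0.93 and -0.72 in Cre and -0.74 and -0.81 in controls (adjusted p up to 3.62e-05).

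Among 16 tested genes of other lysosomal proteases, 2 were higher and 1 was lower in Cre cTEC (median -0.19). Of all genes, 5.62% were higher and 3.38% lower. The lower gene was Scpep1, a serine carboxypeptidase, at 26.4, 30.3 and 31.6 CPM in Cre cTEC and 55.1, 51.8 and 53.6 CPM in control cTEC (log2 fold change -0.87, SE 0.13, adjusted p = 0.000221). The higher ones were Ifi30, a lysosomal thiol reductase that unfolds antigens (0.54, SE 0.14, adjusted p = 0.0213), and Prcp, a prolylcarboxypeptidase (0.55, SE 0.16, adjusted p = 0.043). The Ifi30 call was lost when library 7, 9, 10 or 12 was left out (highest adjusted p = 0.153) and that of Prcp without library 7, 8, 9 or 10 (adjusted p up to 0.279) or with voom (0.26), and both were lost with only the cTEC libraries in the fit. Lgmn, the asparagine endopeptidase, averaged 42.7 ± 6.72 CPM in Cre cTEC and 45.6 ± 3.04 CPM in control cTEC (log2 fold change -0.10, SE 0.12, adjusted p = 0.762). In cTEC compared with mTEC, 4 of the 16 were higher in both genotypes (Ctsf, Ctso, Lgmn and Tpp1), while 10 were lower in Cre and 7 in controls. Among the 17268 genes tested, the share that passed on the cTEC side was 24.5% with Cre and 30.0% in controls. The share that passed on the mTEC side was 25.1% with Cre and 29.3% in controls. Ctsh, cathepsin H, was the furthest below, at -3.75 in Cre (SE 0.16, adjusted p = 6.26e-13) and -3.45 in controls (SE 0.15, adjusted p = 8.2e-13) on the log2 scale. Ctsz stood at -2.18 in Cre and -1.88 in controls, Ifi30 at -1.82 in Cre and -2.35 in controls, and Ctsc was also lower in cTEC in both, the same side as Ctss.

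Of 5 tested cathepsin inhibitors, 2 were higher and 1 lower in Cre cTEC, where 5.62% of all genes were higher and 3.38% lower. Cstb, the cytosolic inhibitor cystatin B, had 949.6, 495 and 826 CPM in Cre cTEC and 318, 465 and 410.4 CPM in control cTEC (log2 fold change 0.93, SE 0.19, adjusted p = 0.00286), in the library order of Psmb11. Cst6, cystatin M, had 195 CPM in library 11 against 6.69 and 7.43 CPM in libraries 10 and 12 and 5.68 to 7.20 CPM in control cTEC. Its log2 fold change of 3.33 (adjusted p = 0.0218) was 0.06 without library 11 (adjusted p = 0.907), and the call was also lost with voom, with the robust fit, with only the cTEC libraries and without any 1 control cTEC library. Serpinb3a was low, at 0.725 ± 0.341 CPM in Cre cTEC and 2.84 ± 0.671 CPM in control cTEC (log2 fold change -2.04, SE 0.43, adjusted p = 0.00396). DESeq2 called 1 of the 5 inhibitor genes and gave no adjusted p for Serpinb3a and Cst6. Cst3, the secreted cystatin C, averaged 362 ± 36.8 CPM with Cre and 428 ± 18.8 CPM in controls (log2 fold change -0.24, SE 0.12, adjusted p = 0.261).

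Peptide trimming, MHC class II loading and lysosomal genes made up 3 lists, set beside the same 9.01% of all genes in cTEC. Of 14 genes for cytosolic and ER trimming and transport, 0 passed with edgeR, 2 had an unadjusted p under 0.05, and DESeq2 and voom called 2 each (median 0.03). Without library 11, Tap1 and Tap2, which carry peptides into the ER, were higher. Of 12 class II loading genes 0 passed with edgeR, 4 had an unadjusted p under 0.05, DESeq2 called 3 and voom 4 (median 0.08). Ciita, the class II transactivator, had 489, 329 and 379 CPM in Cre cTEC and 286, 305 and 309 CPM in control cTEC, with no overlap (log2 fold change 0.41, SE 0.13, adjusted p = 0.0504, and past the threshold with DESeq2, voom, the robust fit, no filter or without library 11). Without library 11, 4 of the 12 were higher (Ciita, H2-DMb2, H2-Oa and March8) and March1 was lower. Over all genes, 1555 passed in cTEC with every library, and 1018 to 2294 with 1 library left out. Among 19 lysosome and autophagy genes, Ulk1, an autophagy kinase, was higher (0.35, SE 0.11, adjusted p = 0.0415, lost without library 8, 9 or 10, without a filter and with only the cTEC libraries) and Tfeb, the transcription factor of lysosome genes, was lower. Tfeb had 21.3, 18.5 and 21.0 CPM in Cre cTEC and 32.4, 28.5 and 30.4 CPM in control cTEC (log2 fold change -0.58, SE 0.13, adjusted p = 0.00596).

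**Figure D5:**
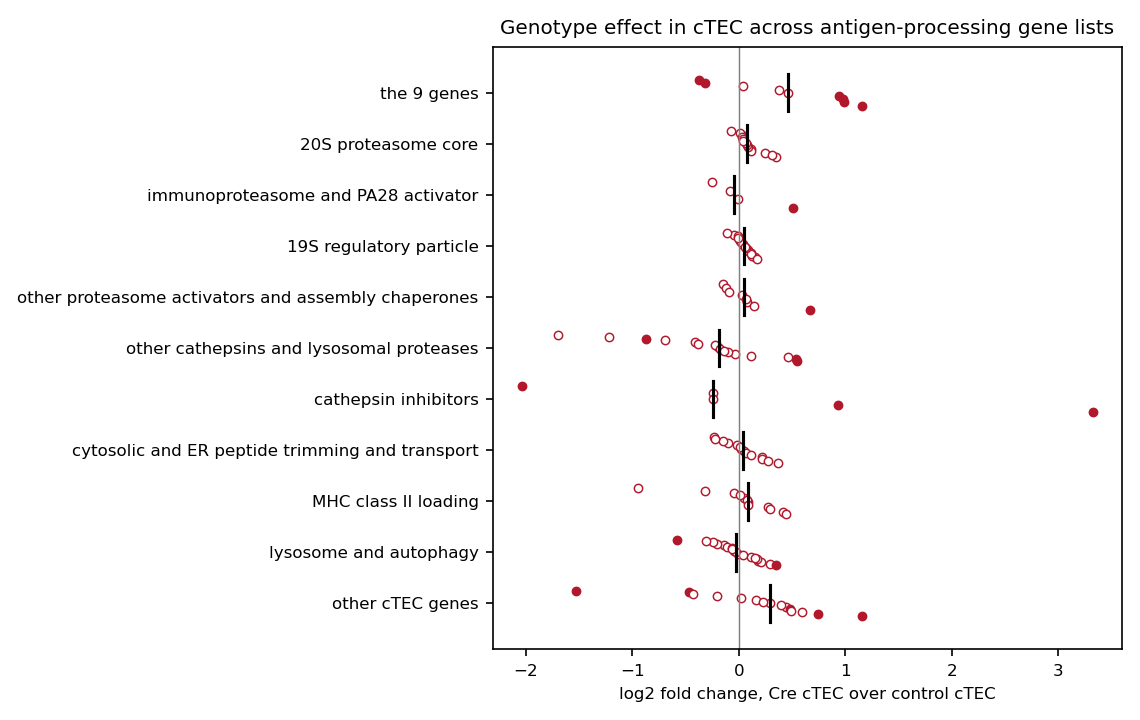
Log2 fold change of Cre cTEC over control cTEC for each tested gene (points) of the 9 genes and of 10 lists, with the list median as a bar; filled points passed the adjusted p threshold of 0.05. The proteasome core and regulatory particle cluster near 0, while the 9 genes spread from -0.37 to 1.16.

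In mTEC, 1 gene of the 9 antigen-processing lists passed with genotype in edgeR, where 2.07% of all genes did. The lists held 14, 4, 18, 8, 16, 5, 14, 12 and 19 tested genes, in the order given above. The gene was H2-Ob, a subunit of the class II loading inhibitor, at 40.3 ± 7.39 CPM with Cre and 63.3 ± 3.67 CPM in controls (log2 fold change -0.65, SE 0.14, adjusted p = 0.0172). H2-Ob did not pass without library 1, 2, 3, 4 or 5 (adjusted p as high as 0.144). DESeq2 called 1 lysosomal protease gene, 1 trimming gene and 3 class II loading genes in mTEC, and 599 genes of all. Voom called 2 lysosomal protease genes, 1 cathepsin inhibitor, 1 trimming gene and 3 class II loading genes, and 1672 genes of all. Between cell types, Lamp2, a lysosomal membrane protein gene, was higher in cTEC by 1.39 in Cre and 1.46 in controls. H2-DMa, a subunit of the class II peptide exchanger, was higher by 1.36 and 1.39, and Erap1, an ER aminopeptidase, by 0.80 and 0.57, all on the log2 scale (adjusted p up to 0.000161).

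Other genes of cTEC also moved in both directions. Of 15, 3 were higher in Cre cTEC (Dll4, Ccl25 and Kitl) and 2 lower (Foxn1 and Ccrl1), with a median of 0.29. Of all genes, 5.62% were higher and 3.38% lower. Ccrl1 (-0.47, adjusted p = 0.0365), a gene for a chemokine scavenger, did not pass without a filter or without library 8, 9, 10, 11 or 12 (adjusted p as high as 0.175). The Kitl call was lost without any 1 cTEC library except library 11 (adjusted p up to 0.156). Dll4, the Notch ligand that commits thymocytes to the T lineage, had 157, 64.1 and 118 CPM in Cre cTEC and 31.0, 68.5 and 52.9 CPM in control cTEC (log2 fold change 1.16, SE 0.26, adjusted p = 0.00653, not called by the robust fit). Ccl25, a chemokine for thymocytes, had 1172, 509 and 899.8 CPM in Cre cTEC and 439, 627 and 480.1 CPM in control cTEC (0.74, SE 0.23, adjusted p = 0.0462), a call lost when library 7, 9, 10 or 12 was left out (highest adjusted p = 0.262), with DESeq2, with the robust fit and with only the cTEC libraries. In both, library 11 lay inside the control range. In mTEC Ccl25 was lower with Cre, at 70.8 ± 19.2 CPM against 169 ± 17.0 CPM in controls (-1.26, SE 0.24, adjusted p = 0.00862), although the robust fit and leaving out library 5 ended that call (adjusted p up to 0.0788). Its effects in the cell types differed by 2.00 (SE 0.33, adjusted p = 0.0022) and those of Dll4 by 1.77 (SE 0.39, adjusted p = 0.0137, and 0.123 with the robust fit), the same sign as Ly75 and Tbata.

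The genes with the most like pattern were found by the root mean square difference of centred log2 CPM over the 12 libraries, among 12343 genes with a mean of at least 5 CPM. These distances are a description, in which the cell type difference weighs most. For Psmb11 the nearest were Prss16 (0.302), Col8a2 (0.309) and Abat (0.323), and for Prss16 they were Abat (0.264), Psmb11 (0.302) and Adhfe1 (0.316). The Abat levels, 180.0, 100.3 and 162 CPM in Cre cTEC and 98.1, 117 and 117 CPM in control cTEC, showed the same order of the Cre libraries. For Tbata the nearest were Gm14207 (0.241), Dll4 (0.246) and Nefm (0.256), and for Ly75 they were Cdh4 (0.236), Frmd6 (0.262) and Isg20 (0.279). Frmd6 had 1276, 522 and 878 CPM in Cre cTEC and 376, 391 and 453 CPM in control cTEC (log2 fold change 1.13, SE 0.21, adjusted p = 0.00161). Among the 9 genes themselves, Ctss was the least like Psmb11, at rank 11992 with a distance of 3.98, and Cd83 ranked 41 at 0.821.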

How the data were processed

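RNA was read from sorted cTEC and mTEC in 12 libraries, made with the SMARTer Low Input kit, which does not mark strand. The authors deposited raw read counts per gene symbol, and the submitters' processing notes name STAR, HTSeq and edgeR as tools and mm9 as build. The sources used here give no versions and no gene annotation. From the counts, CPM with TMM factors were computed, and 17268 of 31332 genes passed filterByExpr by group. edgeR 4.0.16 in R 4.3.3 fitted all 12 libraries as 4 groups (8 residual degrees of freedom), with two-sided quasi-likelihood tests of 5 contrasts and Benjamini-Hochberg adjustment over all genes, threshold 0.05. The code was tested on simulated data. Standard errors are the log2 fold change over the root of F. Levels per kb use 1 GENCODE M21 principal transcript per symbol (GRCm38, another build, so none of its coordinates are used for the counts). Within-library ratios were compared by exact permutation tests. Libraries of a group differed by more than sampling noise (chi-square per degree of freedom 3.3 to 12.9). Reads carry no molecular identifiers, so no counting intervals are given.

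Members and lists were chosen with earlier results of these data known. The genes named are the 9, up to 4 of each list by p in a comparison, the fixed genes Foxn1, Psmb5, Psmb8, Psmb9, Psmb10, Cst3, Lgmn, Ciita and March8, and the 3 most like genes of Psmb11, Prss16, Tbata and Ly75. Nr1h2, Nr1h3, Fdft1, Ctsf, Ctso, Tpp1, Fezf2, Ccl25 in cTEC and the genes that list counts without library 11 add were named after their values were seen. Tried in turn were each library left out, a fit of only the libraries compared, a robust fit, no filter or one of 5 CPM in 3 libraries, scaling by DESeq2 size factors, DESeq2 1.42.0 itself, limma 3.58.1 (voom with quality weights), and ratios without length correction. List counts without library 10 or 11 were added after seeing the data.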

Additional observations from a re-analysis of the deposited data

Results flagged for a closer look

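The genotype effect of Tbata differed between the cell types by 1.69 on the log2 scale (SE 0.32, adjusted p = 0.00579, edgeR), with 1.16 in cTEC and -0.52 in mTEC. All 3 Cre cTEC libraries were above, and all 3 Cre mTEC libraries below, the controls of their cell type. That of Ly75 differed by 1.19 (SE 0.29, adjusted p = 0.0259, past the threshold neither in the robust fit nor when library 1, 4, 7 or 9 was left out), with 0.99 in cTEC, where all 3 Cre libraries exceeded the controls, and -0.20 in mTEC, where the groups overlapped.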

How the results depend on the processing

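No paired analysis was possible because the replicate numbers, 1 to 12, are all different. Over 630 alternatives for the 9 genes, 562 kept direction and side of the threshold, 33 lost a call, 20 gained one and 15 changed sign. Over 1350 for other named genes, leaving out 3 with no adjusted p from DESeq2, these numbers were 1185, 149, 8 and 8. All sign changes were of values that had not passed, and the cause was not tested. In cTEC these were Ctss without library 7 (-0.07) or 11 (-0.04, range with 1 library left out up to 0.21), Cd83 without 10 (-0.06, up to 0.66), Lgmn without 10 (0.03, down to -0.18), Psmb5 without 7 (-0.03), 10 (0.00) or 12 (-0.02, up to 0.21), and Psmb8 with voom (0.09), no filter (0.03) and without 9 (0.11) or 11 (0.09, down to -0.10). In mTEC they were Ctsb with voom (0.01), with only the libraries compared (0.00) and without 1 (0.01), 2 (0.01) or 6 (0.02, down to -0.08), and Psmb11 without 5 (-0.11, up to 0.66, and -0.10 for its beta5 share). For the difference of effects they were Ctsd with no filter (0.03) and without 4 (0.06, down to -0.08), and Ctsl without 2 (-0.05), 6 (-0.10), 9 (-0.01) or 10 (-0.12, up to 0.26).

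In cTEC the robust fit left 2 of the 9 genes higher and 1 lower, and 0 were lower without a filter or with only the libraries compared. With 1 library left out, 2 to 6 were higher, 0 to 2 lower, and 1018 to 2294 genes of all passed. In mTEC, where 358 genes passed, DESeq2 called 599 (1 of the 9 lower), voom 1672 (1 higher, 2 lower), no filter 1049 (2 lower) and only the libraries compared 1026 (2 lower). Leaving out 1 library gave 78 to 671. For the difference of effects, with 692 genes, DESeq2 called 1131, voom 1398 and no filter 1140, with 5 of the 9 higher under no filter and 1 under the robust fit. Leaving out 1 library gave 371 to 1644 genes and 1 to 4 of the 9. The mTEC difference of the log2 beta5 share of Psmb11 ran from -0.10 to 0.67. With 1 count worth up to 0.193 CPM, depth limits low genes such as Serpinb3a more than the 9 genes.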
